A study of Mus musculus with 9 samples.

Results

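The mitochondrial respiratory chain was followed through 87 transcripts, of 19753 genes tested, in the frontal cortex of WT and Neat1-/- mice. The members were protein-coding genes named as subunits of complex I (Nduf), complex II (Sdh), complex III (Uqcr), complex IV (Cox4 to Cox8) or the ATP synthase, complex V (Atp5), together with the mRNAs of the mitochondrial genome (mt-). Of 96 genes with such symbols, 4 on chromosome 19, which carries Neat1, were set aside (Ndufb8, Ndufv1, Ndufs8 and Cox8a), and 5 did not reach 10 counts in at least 4 libraries (mt-Nd3, mt-Nd4l, mt-Atp6, mt-Atp8 and Cox8c). The 87 members comprised 78 nuclear genes (33 of complex I, 4 of complex II, 8 of complex III, 16 of complex IV and 17 of complex V) and 9 genes of the mitochondrial genome (5 of complex I, 1 of complex III and 3 of complex IV).

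Ribosomal RNA-depleted total RNA was sequenced from 5 WT and 4 Neat1-/- mice, all females on the C57BL/6 strain and 2 to 4 months old. Neat1 is the long noncoding RNA at the core of nuclear paraspeckles. The Neat1-/- mice carry a lacZ cassette whose polyadenylation signals end its transcription early, and the rest of the locus was kept. The WT mice were 2, 2, 3, 4 and 4 months old and the Neat1-/- mice 3, 3, 4 and 2 months old. The libraries held 51276067 to 64648856 counts, and the question here was how far the loss of Neat1 RNA was accompanied by a change of respiratory chain transcripts from either genome.

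The respiratory chain passes electrons from NADH through complex I, or from succinate through complex II, to complex III and on to complex IV, which reduces oxygen. The proton gradient that builds up along the way drives ATP synthesis by complex V, and neurons draw most of their ATP from it. All complexes except complex II are built from subunits of both genomes, so that mRNAs made in the nucleus and inside the organelle serve the same assembly.

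The level of Neat1 in counts per 1000000 (CPM, scaled by TMM factors) was 60.8, 83.2, 119.9, 68.1 and 75.3 in WT and 7.38, 7.11, 8.36 and 9.72 in Neat1-/-, a log2 fold change of -3.33 ± 0.19 (SE; edgeR adjusted p = 1.27e-06). Every Neat1-/- library lay far below every WT library.

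Respiratory chain transcripts were nearly level between the genotypes. No member passed an adjusted p of 0.05 in edgeR, whereas 9 of all genes tested were called higher (0.0456%) and 5 lower (0.0253%). With unadjusted p-values below 0.05, 4 members were higher in Neat1-/- (Cox7a2l, Atp5j, mt-Co2 and mt-Co3) and 0 lower, beside 4.27% of all genes higher and 4.03% lower. DESeq2 and limma also called 0 members at an adjusted p of 0.05; at an unadjusted p under 0.05 they placed 2 and 7 members higher, respectively, and 0 lower. Of all genes, DESeq2 placed 3.79% higher and 4.01% lower by that measure, and limma 5.5% and 4.39%. At an adjusted p of 0.05 DESeq2 called 76 of all genes and limma 22, beside 14 in edgeR. The genotypes did not overlap for 3 members, all higher in Neat1-/- (Cox7a2l, Atp5j and mt-Co3), against 1.66% of all genes in that direction and 1.01% in the other. The log2 fold change was above 0 for 64 members (73.6%) and below 0 for 23, where 49.9% of all genes lay above 0. The median log2 fold change was 0.03 over the members and -0.0002 over all genes.

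The precision for these transcripts was high. The 78 members with a mean of 5 CPM or more had a median coefficient of variation of 4.78% over the 9 mice. It was 8.69% for all genes, which reach down to a mean of 0.109 CPM and are not matched to these members in level. The log2 fold changes of the 78 ran from -0.05 to 0.16. For all 78 the 95% interval of the fold change lay within 1.2-fold in either direction. The 9 members below 5 CPM, among them mt-Co2, mt-Co3 and 6 tissue isoforms of complex IV, had a median coefficient of variation of 25.2%, and 1 of them, Atp5l, had its interval within 1.2-fold.

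**Figure D1:**
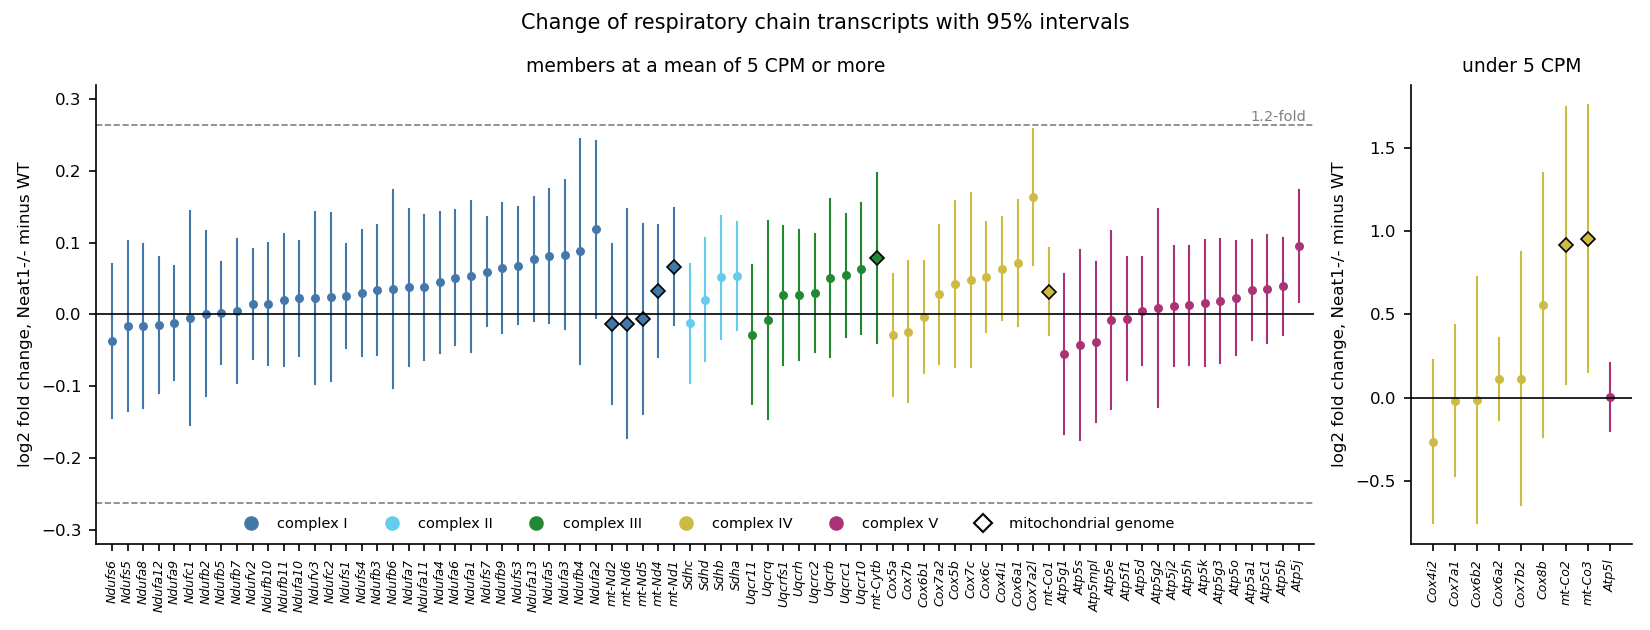
Log2 fold change (y axis, Neat1-/- minus WT) of 86 members (x axis), with 95% intervals from the edgeR fit, coloured by complex; diamonds with a black edge are genes of the mitochondrial genome, and the right panel has a wider axis. The 77 members drawn at 5 CPM or more stay inside the dashed lines at 1.2-fold, and Cox7a2l lies highest among them.

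Per length of exon the members spanned several orders of magnitude. Length was that of all annotated exons of a gene together. A long annotated isoform thus lowers the value, whether or not it is expressed. For Atp5l it was 6443 bases, against 544 in its longest coding transcript. Among members at 5 CPM or more, the 71 nuclear genes lay between 5.37 and 288 CPM per kb, with a median of 49.4, and the 7 mitochondrial genes between 114 and 7020, with a median of 302. The highest nuclear levels per kb were those of Atp5a1 (288) and Atp5b (261), the alpha and beta subunits that form the catalytic head of the ATP synthase, and of Cox6a1 (244). In the mitochondrial genome, mt-Co1, which carries the catalytic core of complex IV, stood highest (7018 CPM per kb), followed by mt-Nd1 (1626) and mt-Cytb (1145).

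**Figure D2:**
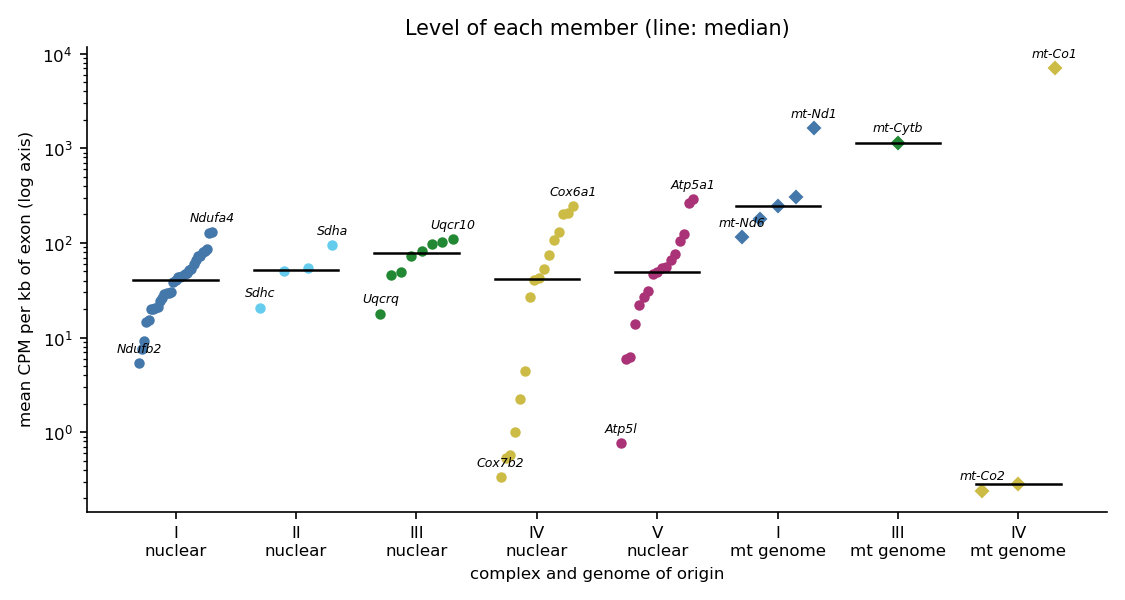
Mean level over the 9 mice in CPM per kb of exon (y axis, log scale) for each member, grouped by complex and genome of origin (x axis), with the median of each group as a line and the lowest and highest member named. Nuclear medians lie between 40.8 (complex I) and 77.4 (complex III), and the mitochondrial members of complex IV split into mt-Co1 above and mt-Co2 and mt-Co3 far below.

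Complex I, the NADH dehydrogenase, contributed 33 nuclear members, of which 27 had a log2 fold change above 0 and 6 below, with a median of 0.03. No member was below an unadjusted p of 0.05. Ndufa4, which carries a complex I name but is now counted with complex IV, stood at 176 ± 10.3 CPM in WT (SD, n = 5) and 182 ± 6.98 in Neat1-/- (SD, n = 4). The largest difference was that of Ndufa2, an accessory subunit, at 42.1, 40.0, 37.3, 37.8 and 43.5 CPM in WT and 43.3, 47.0, 39.5 and 44.8 in Neat1-/-. These ranges overlapped, and the log2 fold change of 0.12 ± 0.06 (SE) had an edgeR adjusted p of 0.613.

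Complex II, the succinate dehydrogenase shared with the citrate cycle, is wholly nuclear. Its flavoprotein Sdha had 381 ± 15.3 CPM in WT and 396 ± 9.30 in Neat1-/-, and the iron-sulfur subunit Sdhb 110 ± 4.74 and 114 ± 5.15. The membrane anchors Sdhc (67.5 ± 3.04 and 66.9 ± 1.97 CPM) and Sdhd (66.4 ± 3.61 and 67.4 ± 2.96) had nearly equal CPM. Per kb of exon they differed, at 20.7 and 54.3 CPM, over 3250 and 1231 bases of annotated exon. The 4 log2 fold changes lay between -0.01 and 0.05, with edgeR adjusted p-values of 0.675 and above.

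Complex III, the cytochrome bc1 complex, had 8 nuclear members with a median log2 fold change of 0.03. Its core proteins Uqcrc2 (209 ± 10.3 CPM in WT and 213 ± 5.30 in Neat1-/-) and Uqcrc1 (188 ± 9.93 and 195 ± 7.93) differed by less than their SDs. Uqcr10, a small subunit, had the largest difference, at 66.4, 63.6, 56.8, 61.7 and 63.6 CPM in WT and 64.6, 67.4, 62.3 and 66.7 in Neat1-/-. The 2 ranges overlapped (log2 fold change 0.06, edgeR adjusted p = 0.680).

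In complex IV, cytochrome c oxidase, 16 nuclear members had a median log2 fold change of 0.05. Cox7a2l, located at chr17:83501918-83517330 (GRCm38, minus strand), encodes a protein related to Cox7a that is linked to supercomplexes of complexes III and IV. The role of that protein in this strain was not tested. Cox7a2l had 76.6, 80.1, 67.9, 73.7 and 77.4 CPM in WT and 85.6, 86.0, 80.7 and 84.4 in Neat1-/-. Every Neat1-/- mouse thus lay above every WT mouse. The lowest Neat1-/- value exceeded the highest WT value by less than the SD within WT (4.65). The log2 fold change was 0.16 ± 0.04 (SE), the smallest p of all members (edgeR p = 0.0025, adjusted p = 0.409; two-sided exact permutation p = 0.0159, where the smallest possible was 0.00794).

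The direction of Cox7a2l recurred while its adjusted p varied. In 20 of 20 alternative fits the gene was higher in Neat1-/- at an unadjusted p under 0.05, with log2 fold changes from 0.11 to 0.19 and adjusted p-values from 0.0769 to 0.893. Without WT replicates 3 and 4, which held its lowest values, the log2 fold change was 0.11 (edgeR adjusted p = 0.512). Of the 50-base windows of its transcript, 17.7% also occur in the processed pseudogene Gm6969, which held 173 counts in all libraries against 41844 for Cox7a2l.

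Several other complex IV subunits came as ubiquitous and tissue isoforms. Cox4i1, the ubiquitous form of the regulatory subunit 4, had 306 ± 14.3 CPM in WT and 320 ± 11.1 in Neat1-/-, and Cox6a1 168 ± 10.1 and 176 ± 4.16. Their counterparts were far lower. Cox4i2, the oxygen-responsive form, had 0.864 ± 0.223 and 0.720 ± 0.117 CPM, and Cox6a2, the form of heart and muscle, 2.88 ± 0.216 and 3.11 ± 0.153. Cox7a1 (1.21 ± 0.296 and 1.2 ± 0.118 CPM) and Cox8b (0.160 ± 0.0668 and 0.230 ± 0.0822), also forms of heart and muscle, were similarly low. The testis forms Cox6b2 (0.638 ± 0.315 and 0.627 ± 0.112) and Cox7b2 (0.174 ± 0.0487 and 0.189 ± 0.0466) completed this group, and Cox8c had 0 counts in every library. None of these isoforms passed an unadjusted p of 0.05.

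Complex V, the ATP synthase, had 17 nuclear members with a median log2 fold change of 0.01. Its catalytic subunit Atp5b was the most abundant nuclear member, at 1108, 1105, 1034, 1079 and 1135 CPM in WT and 1145, 1133, 1076 and 1134 in Neat1-/-. The genotypes overlapped, and 3 Neat1-/- values lay close together with the fourth well below (log2 fold change 0.04, edgeR adjusted p = 0.742). Atp5a1 stood at 893 ± 36.7 CPM in WT and 915 ± 29.4 in Neat1-/-. The c subunit of the rotor ring is made from 3 genes with the same mature protein. In CPM, Atp5g3 (121 ± 6.61 and 123 ± 3.36) and Atp5g1 (69.1 ± 5.23 and 66.6 ± 3.67) were well above Atp5g2 (9.92 ± 0.25 and 9.99 ± 0.585). Per kb of exon, Atp5g3 stood at 55.8 CPM (2181 bases of annotated exon), Atp5g1 at 13.8 (4912 bases) and Atp5g2 at 5.94 (1675 bases).

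Atp5j, at chr16:84827866-84835625 (GRCm38, minus strand), encodes coupling factor 6 of the peripheral stalk. It had 67.5, 68.2, 62.9, 65.3 and 69.5 CPM in WT and 69.9, 71.5, 73.3 and 70.2 in Neat1-/-. The ranges were separated, but only by a gap far smaller than the spread within either genotype. The log2 fold change was 0.10 ± 0.04 (SE), with an edgeR p of 0.0212 and an adjusted p of 0.570, and an unadjusted p under 0.05 recurred in 17 of 20 alternative fits. Atp5j overlaps Gabpa, which lies on the opposite strand from chr16:84834925 and encodes a subunit of a transcription factor of respiratory genes. Whether strand was used in counting is not given in the sources used here, so reads in the overlap cannot be told apart. Gabpa itself had 31.8 ± 1.2 CPM in WT and 31.4 ± 1.63 in Neat1-/- (log2 fold change -0.02).

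Nuclear subunits also have retrocopies, and for some of them the counts are uncertain on that account. At least 1 window of 50 bases occurred in another annotated gene for 44 of the 78 nuclear members and in none for 34, and the share was above 25% for 14. It was 84.8% for Atp5l, a subunit of the membrane part of the ATP synthase that helps its dimers form, spread over 14 other genes, and 50.3% for Atp5o and 47.9% for Atp5h, both of the peripheral stalk. Atp5l was the least counted nuclear member of complex V, at 4.90 ± 0.207 CPM in WT and 4.94 ± 0.551 in Neat1-/-, while Atp5o had 128 ± 5.62 and 130 ± 3.14 and Atp5h 111 ± 5.18 and 112 ± 2.23. None of these differed between genotypes beyond the SD.

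At the edge of the count rule, mt-Co2 (87 counts), Cox7b2 (96), Cox8b (100) and mt-Co3 (115) were just inside and mt-Atp6 (41) and mt-Nd3 (23) just outside. The 4 subunit genes set aside for lying on the chromosome of Neat1, near to it or far from it, had log2 fold changes of 0.01 (Ndufb8), 0.01 (Ndufs8), 0.06 (Ndufv1) and 0.03 (Cox8a). Ndufv1, which binds the NADH, stood at 156 ± 5.69 CPM in WT and 162 ± 5.54 in Neat1-/- (edgeR adjusted p = 0.654).

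**Figure D3:**
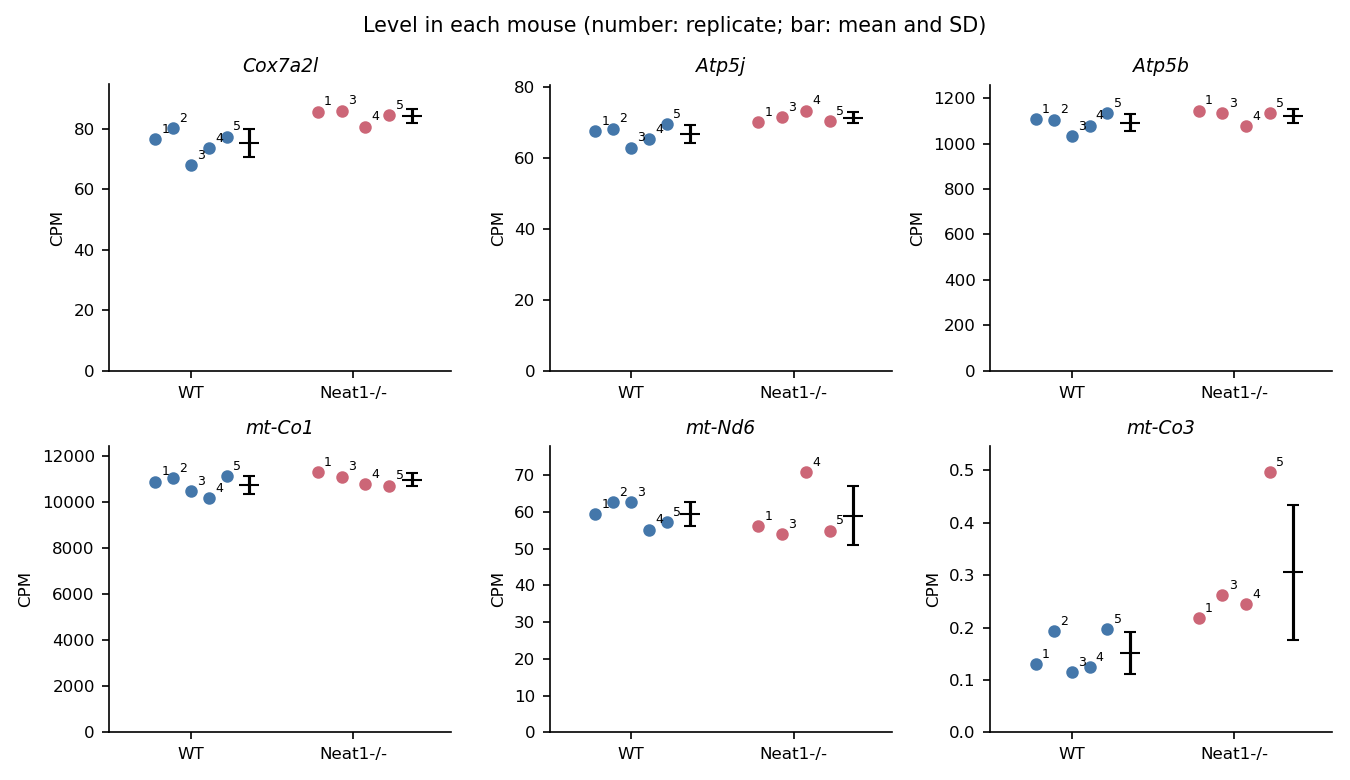
Level in CPM (y axes, from 0) of 6 members in each mouse, grouped by genotype (x axes); numbers are the replicate numbers and black bars give the mean and SD of 5 WT and 4 Neat1-/- mice. Cox7a2l, Atp5j and mt-Co3 do not overlap between genotypes, whereas Atp5b and mt-Co1 overlap and mt-Nd6 is set apart in Neat1-/- 4 alone.

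The mitochondrial genome encodes 13 mRNAs, and their counts fell very unevenly along it. mt-Co1 held 73.5% of these counts, mt-Nd1 10.6% and mt-Cytb 8.89%, while mt-Nd4, mt-Nd5 and mt-Nd2 held 2.28%, 2.21% and 2.13% and mt-Nd6, the gene of the other strand, 0.402%. Between mt-Co1 and mt-Nd4 lie 6 genes, at chrM:7013-10173, that were all but uncounted. Over all 9 libraries mt-Co2 had 87 counts, mt-Atp8 2, mt-Atp6 41, mt-Co3 115, mt-Nd3 23 and mt-Nd4l 3, against 5731739 for mt-Co1. The mitochondrial mRNAs are cut from long transcripts of whole strands, so that these genes share their primary transcript with mt-Co1.

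All of these genes except mt-Atp8 match annotated nuclear copies of mitochondrial DNA almost base for base. A run of unprocessed pseudogenes at chr1:24611535-24616197 (GRCm38, minus strand) repeats the same gene order. Gm28661 was identical to mt-Co2 at 681 of 681 bases compared, Gm28437 to mt-Co3 at 783 of 783, Gm10925 to mt-Atp6 at 678 of 678 and Gm10222 to mt-Nd4l at 294 of 294. Gm28438 differed from mt-Nd3 at 1 of 345 bases (T3C, counted from the 5′ end of mt-Nd3). Their opening bases show how little a read could use to tell the genomes apart. In the GENCODE vM21 transcripts, the mt-Co2 lines (chrM:7013-7132, plus strand, and chr1:24615446-24615565, minus strand) are the same throughout, and the capitals in the mt-Nd3 lines (chrM:9459-9518 and chr1:24613060-24613119) mark the only difference.
mt-Co2: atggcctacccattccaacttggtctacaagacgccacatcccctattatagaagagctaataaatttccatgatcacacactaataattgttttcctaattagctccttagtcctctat
Gm28661: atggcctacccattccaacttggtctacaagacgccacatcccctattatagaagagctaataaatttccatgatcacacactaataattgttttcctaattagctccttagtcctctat
mt-Nd3: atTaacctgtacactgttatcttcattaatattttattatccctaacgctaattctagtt
Gm28438: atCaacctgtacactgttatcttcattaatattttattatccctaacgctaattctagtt

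The share of 50-base windows that also occur in another annotated gene covered all 635 windows of mt-Co2, and was 99.9% for mt-Co3, 99.5% for mt-Atp6, 98.8% for mt-Nd4l and 98.0% for mt-Nd3. It was 62.2% for mt-Nd4, 51.1% for mt-Co1, 8.19% for mt-Nd2 and 7.61% for mt-Nd5, and 0 for mt-Nd1, mt-Nd6 and mt-Cytb. mt-Atp8, with 2 counts, had no shared window among annotated genes. By the gene order, a copy would lie between Gm10925, which ends at chr1:24614651, and Gm28661, which starts at chr1:24614885. That stretch was not compared, since only annotated transcripts were searched. Over all libraries, Gm28661 had 80 counts beside 87 for mt-Co2, and Gm10925 had 21 beside 41 for mt-Atp6. The copy had more counts than the mitochondrial gene in the other 3 pairs, with 398 for Gm28437 and 115 for mt-Co3, 125 for Gm10222 and 3 for mt-Nd4l, and 5633 for Gm28438 and 23 for mt-Nd3. Gm28438 stood at 10.8 ± 0.436 CPM in WT and 10.5 ± 0.867 in Neat1-/-. How reads that fit several places were treated is not given in the sources used here, and its part in these low counts was not tested. The counts of these 6 genes are uncertain as levels. mt-Nd4 also has an annotated copy, Gm28439, identical at 876 of 876 bases compared, with 10 counts beside 177485. Whether the shared windows of mt-Nd4 and mt-Co1 bear on their counts was not tested, so their levels carry this uncertainty too.

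**Figure D4:**
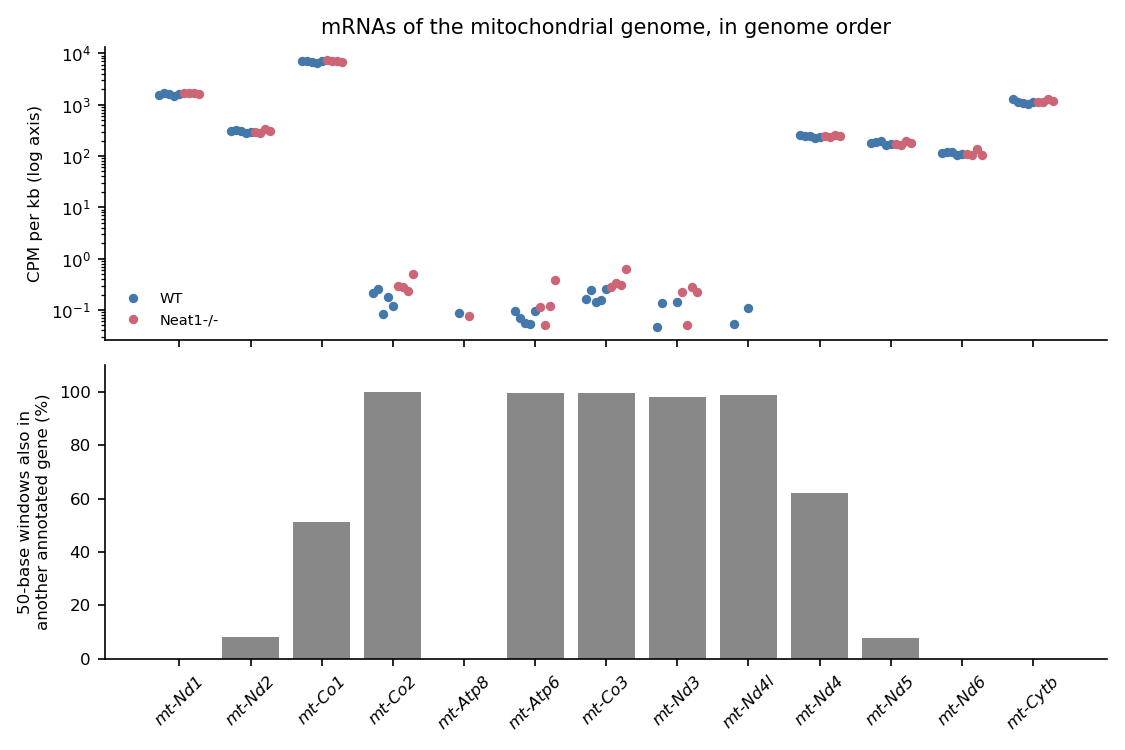
Level of the 13 mitochondrial mRNAs in each mouse in CPM per kb (upper y axis, log scale, values of 0 not drawn) and the share of 50-base windows found in another annotated gene (lower y axis, percent), in genome order (x axis). From mt-Co2 to mt-Nd4l the levels stay below 1 CPM per kb in every mouse. All of these genes except mt-Atp8 have 98.0% or more of their windows in another annotated gene.

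None of the other 7 mitochondrial members passed an unadjusted p of 0.05. Their median log2 fold change was 0.03, and 4 were above 0 and 3 below. mt-Co1 had 10880, 11040, 10480, 10170 and 11120 CPM in WT and 11300, 11100, 10790 and 10710 in Neat1-/- (log2 fold change 0.03 ± 0.03, SE; edgeR adjusted p = 0.763). mt-Nd1, a membrane subunit beside the quinone site of complex I, had 1524 ± 78.6 and 1595 ± 47.4 CPM, and mt-Cytb, the cytochrome b of complex III, 1280 ± 116 and 1349 ± 71.8. The largest of these 7 log2 fold changes was that of mt-Cytb, at 0.08 ± 0.05 (SE; edgeR adjusted p = 0.694).

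The remaining subunits of complex I from the mitochondrial genome, mt-Nd2, mt-Nd4, mt-Nd5 and mt-Nd6, had log2 fold changes from -0.01 to 0.03. mt-Nd6 had 59.5, 62.8, 62.8, 55.2 and 57.2 CPM in WT and 56.2, 54.1, 70.9 and 54.9 in Neat1-/-. Neat1-/- 4 stood above every WT mouse, Neat1-/- 3 and Neat1-/- 5 below every WT mouse, and Neat1-/- 1 inside the WT range. The means (59.5 ± 3.37 and 59.0 ± 7.95 CPM) were nearly equal. Without Neat1-/- 4, mt-Nd6, mt-Nd5 and mt-Nd2 were lower in Neat1-/- at an unadjusted edgeR p under 0.05, with log2 fold changes of -0.13, -0.10 and -0.09 and adjusted p-values of 0.650, 0.730 and 0.730, where 3.53% of all genes were lower.

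mt-Co2 and mt-Co3 had the largest fold changes of all members and were among the 4 members with the fewest counts. mt-Co3 had 8, 12, 6, 7 and 12 counts in WT and 14, 15, 15 and 26 in Neat1-/-, and mt-Co2 9, 11, 3, 7 and 5 in WT and 13, 11, 10 and 18 in Neat1-/-. The log2 fold changes were 0.95 ± 0.37 for mt-Co3 and 0.92 ± 0.38 for mt-Co2 (SE; edgeR adjusted p = 0.580 and 0.581). Without Neat1-/- 5, which had the highest value of both, neither gene was below an unadjusted p of 0.05. Which genome these few reads came from cannot be told apart.

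The balance of the genomes differed between the genotypes by less than its SD. Mitochondrial mRNAs took 1.38% to 1.5% of all counts in WT and 1.46% to 1.51% in Neat1-/-, and nuclear members 0.784% to 0.852% and 0.801% to 0.855%. The ratio of the mitochondrial to the nuclear share was 1.77 ± 0.0554 in WT (SD, n = 5) and 1.78 ± 0.0566 in Neat1-/- (SD, n = 4). In bulk tissue a change in the number of cells and a change of RNA per cell cannot be told apart.

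Nuclear members moved together from mouse to mouse. Measured as the median deviation in log2 CPM from each gene's mean, the 78 nuclear members stood at 0.04, 0.02, -0.11, -0.04 and 0.04 in the WT libraries and at 0.04, 0.04, -0.04 and 0.03 in the Neat1-/- libraries. WT 3 was the lowest of the 9 libraries for 53 nuclear members and WT 4 for 15, and WT 3 had the lowest median in 4 of the 5 complexes, with WT 4 the lowest in complex II. Complex III ranged from -0.13 in WT 3 to 0.05 in Neat1-/- 3, and complex V from -0.11 in WT 3 to 0.04 in WT 1. Other genes showed the shift too. The 567 other coding genes with transcripts under 1000 bases had medians of -0.08 in WT 3 and -0.04 in WT 4. The 90 coding genes whose symbols begin with Rpl or Rps and a digit had -0.13 and -0.10. They were taken by symbol alone, so not all need be ribosomal proteins. Unconfirmed and sense intronic gene models took 0.234% and 0.213% of the counts in WT 3 and WT 4 and at most 0.136% in any other library. Markers of choroid plexus and ependyma summed to 115.6 CPM in WT 3 and 17.8 to 29.0 in the other libraries, and meningeal markers to 36.0 CPM in WT 4 and 84.4 to 243.9 in the others. Their part in the low nuclear members was not tested.

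With WT 3 and WT 4 left out, the small excess of positive changes was gone. These libraries held the lowest values of most nuclear members, so leaving them out lowers the log2 fold changes in itself. The fit therefore cannot tell whether the excess depends on them alone. The median log2 fold change of the nuclear members was -0.02 in place of 0.02, and 4 members (Atp5g1, Uqcr11, Ndufs6 and Uqcrq) were lower at an unadjusted p under 0.05, with edgeR adjusted p-values of 0.550 to 0.671, while Cox7a2l alone of the nuclear members was higher. Of all genes, 3.48% were lower and 3.81% higher in that fit. These 4 were named after their values were seen.

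The mitochondrial members followed the nuclear ones only in part. Their median deviation without mt-Co2 and mt-Co3 was lowest in WT 4 (-0.12) and highest in Neat1-/- 4 (0.13), a library in which nuclear members were low (-0.04). The most abundant, mt-Co1, with 73.5% of the mitochondrial mRNA counts, was not high in Neat1-/- 4 (10790 CPM). It had its lowest values in WT 4 (10170) and WT 3 (10480). Neat1-/- 4 also had the highest share of mitochondrial ribosomal RNA, at 4.62% of counts against 3.61% to 4.27% in the other libraries. The part of these library differences in the values above was not tested.

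**Figure D5:**
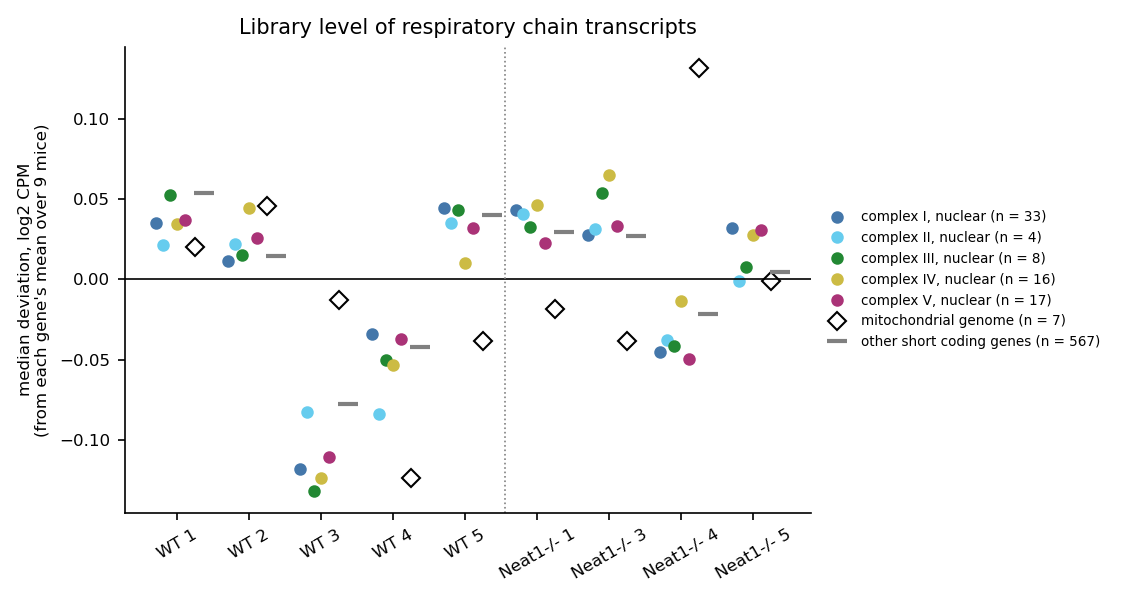
Median deviation of each group of genes in each library (x axis) in log2 CPM from each gene's mean over the 9 mice (y axis), for nuclear members by complex, the 7 counted mitochondrial members and 567 other short coding genes. WT 3 and WT 4 lie below 0 for all nuclear complexes, and Neat1-/- 4 is low for nuclear and high for mitochondrial members.

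Genes that serve the respiratory chain without being subunits were also level. Among 46 assembly factors, 0 were lower and 1 was higher by an unadjusted p under 0.05, with a median log2 fold change of 0.004. This was Surf1, an assembly factor of complex IV, at 42.2, 43.7, 40.6, 41.9 and 43.7 CPM in WT and 46.5, 46.1, 46.0 and 46.6 in Neat1-/-. The genotypes were separated and the Neat1-/- values were close together (log2 fold change 0.13 ± 0.04, SE; edgeR adjusted p = 0.430; two-sided exact permutation p = 0.00794, the smallest possible). Of 28 genes of mitochondrial DNA expression, 0 were higher and 1 lower, with a median of 0.01. Lrpprc, which stabilises mitochondrial mRNAs, had 137 ± 3.26 CPM in WT and 129 ± 2.44 in Neat1-/-, again without overlap (log2 fold change -0.09, edgeR adjusted p = 0.558). Of 16 genes of the citrate cycle and pyruvate dehydrogenase, 1 was higher (Suclg2, a subunit of succinyl-CoA ligase, 11.8 ± 1.14 and 13.5 ± 0.437 CPM, edgeR adjusted p = 0.580) and 0 lower. Neither the 8 regulators, which include Ppargc1a, Nrf1 and Gabpa, nor the 8 carriers and subunits outside the symbol rule held any gene below an unadjusted p of 0.05. The same threshold was passed by 4.27% of the 19753 genes tested in the higher direction and by 4.03% in the lower. Genotypes were separated for 1.66% of them in the higher direction and 1.01% in the lower. Whether any of these lists departs from those shares was not tested.

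Markers of the cell types in cortex were present in all libraries, the neuronal list at 8730 to 9170 CPM summed in WT and 8900 to 9360 in Neat1-/-. Of 10 markers of mature oligodendrocytes, 4 were lower at an unadjusted p under 0.05 and 0 higher, with sums of 2200 to 3420 CPM in WT and 1880 to 2880 in Neat1-/-. No marker of the 8 lists was at 0 counts in all libraries, and 1 of 10 neuronal markers was lower. Of 7 microglial markers, 3 were higher. Over all genes, 4.03% were lower and 4.27% higher at that threshold, and no marker of these lists passed an adjusted p of 0.05 in edgeR. The part of these differences in the respiratory chain values was not tested.

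Promoter sequence is a feature that the choice of genes did not use. RefSeq promoters (GRCm38.p6, 250 bases before to 50 bases after the start) were at hand for 62 of the 78. The core of the NRF1 motif, GCGCNTGCG, occurred on either strand in 23 of these (37.1%), against 7.12% of 27025 genes. The ETS core CCGGAAG, bound by Gabpa among others, occurred in 14 (22.6% against 9.93%), and the YY1 core AAGATGGC in 8 (12.9% against 3.19%). The 27025 were all genes with such a promoter, expressed in these libraries or not, so they are not matched to the members. None of the 3 cores contains another, and no test was run on these shares. Members with and without the NRF1 core had median log2 fold changes of 0.02 and 0.03, and the promoter of Cox7a2l held none of the 3. An example with the NRF1 core and another with the ETS core are shown from 250 to 51 bases before the start, where no annotated exon lies. They belong to the most abundant members whose stretch holds the motif, Ndufs5 of complex I (chr4:123718237-123718436, minus strand) and Uqcr11 of complex III (chr10:80406872-80407071, minus strand), and the capitals mark the match.
Ndufs5: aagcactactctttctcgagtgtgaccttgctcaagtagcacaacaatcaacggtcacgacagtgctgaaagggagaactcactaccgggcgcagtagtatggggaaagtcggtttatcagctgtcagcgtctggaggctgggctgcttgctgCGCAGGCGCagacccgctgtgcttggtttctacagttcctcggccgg
Uqcr11: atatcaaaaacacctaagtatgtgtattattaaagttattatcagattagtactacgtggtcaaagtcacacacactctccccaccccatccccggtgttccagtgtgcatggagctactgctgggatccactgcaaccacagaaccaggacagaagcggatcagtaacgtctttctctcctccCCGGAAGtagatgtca
The match in Ndufs5 is on the opposite strand. Ndufs5 had 18.3 ± 0.821 CPM in WT and 18.1 ± 0.914 in Neat1-/-, and Uqcr11 62.9 ± 4.31 and 61.7 ± 1.03 (edgeR adjusted p = 0.949 and 0.877).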

How the data were processed

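Total RNA from frontal cortex was depleted of ribosomal RNA by the authors and sequenced as 1 library per mouse. The submitters' processing notes name STAR 2.5.0, HTSeq 0.8.0 and the mm10 build, while the study's supplementary methods give TopHat and Bowtie at default settings and HTSeq in its intersection-strict mode. Which of these made the deposited counts, the strand setting and the handling of reads with several positions are not given in the sources used here. The deposited counts are raw read counts per Ensembl gene and were used as deposited, with 0 per-sample columns left unused. A table of normalized log2 values deposited by the authors was not used.

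Names and positions came from GENCODE vM21 (GRCm38), which named 42548 of 43629 genes. Genes kept by filterByExpr by genotype (19753) were tested with edgeR 4.0.16 in R 4.3.3 (TMM factors, glmQLFit and glmQLFTest, age in months and genotype, Benjamini-Hochberg over all genes). Intervals are at 95%. A two-sided exact permutation test was added for single genes, over the 126 ways to choose 4 of 9 mice. Alternatives were DESeq2 1.42.0, limma 3.58.1 voomWithQualityWeights, other size factors, filters and age terms, a replicate block and libraries left out. The fit was tested on simulated counts. Nothing says more of the replicates than that they are separate mice. Shared windows are exact matches of 50 bases, on either strand, to any other annotated transcript; the genome sequence was not used. Tables and plots were made with pandas 2.3.3, Matplotlib 3.10.9, SciPy 1.17.1 and NumPy 2.4.6 under Python 3.11.15.

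The members and lists were chosen with earlier results of these data known. Named were, of each complex and genome, up to 5 members at an unadjusted p under 0.05, or else the 2 most abundant, the highest per kb and the one with the largest change, the mitochondrial mRNAs, the tissue isoforms, and up to 2 genes of each list at an unadjusted p under 0.05; exceptions are stated, and 1 gene is not reported here.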

Additional observations from a re-analysis of the deposited data

Results flagged for a closer look

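Within 4 Neat1-/- or 5 WT mice, a mouse was singled out where its gap to the nearest other mouse took up most of the range of its genotype (Dixon's 95% limit). Of 78 such comparisons 6 passed, and chance passes about 1 in 20. Of these 6, 5 belong to Neat1-/- 4. Its median deviation over all members was -0.0397 in log2 CPM against 0.0276 to 0.0373 in the other Neat1-/- mice. Over the nuclear members alone it was -0.0435 against 0.0283 to 0.0375, and over the mitochondrial members 0.1315 against -0.0167 to 0.0001. The same mouse had 1076 CPM of Atp5b, where the other 3 had 1133 to 1145, and 70.87 CPM of mt-Nd6, where they had 54.06 to 56.24. Neat1-/- 5 had 0.4967 CPM of mt-Co3 against 0.2179 to 0.2622, which rests on 26 counts. The cause of these differences was not tested.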

How the results depend on the processing

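No member reached an adjusted p of 0.05 in any of 20 alternatives. At an unadjusted p under 0.05, nuclear members higher in Neat1-/- numbered 2, against 5 with limma, 4 with age as a factor, 4 with the replicate block, 1 without WT 3 and WT 4 together, and 1 (without WT 4) to 10 (without WT 5; 4 without Neat1-/- 4) with libraries left out singly; nuclear members lower numbered 0, against 4 without WT 3 and WT 4 and 0 to 1 (without WT 3) with single libraries left out. Mitochondrial members higher numbered 2, against 0 in DESeq2, 1 with no filter, 0 with 10 counts in every library, where mt-Co2 and mt-Co3 were not tested, 1 without WT 3 and WT 4, and 0 (without Neat1-/- 5) to 2 with single libraries left out; it was 1 without WT 1, WT 3, Neat1-/- 1 or Neat1-/- 4. Mitochondrial members lower numbered 0, and 0 to 3 (without Neat1-/- 4) with single libraries left out. Of all genes, 4.27% were higher and 4.03% lower, against 5.5% and 4.39% with limma and, with single libraries left out, 2.39% (without Neat1-/- 1) to 6.13% (without WT 5; 2.4% without WT 4) higher and 2.68% to 8.58% lower. The median log2 fold change stayed within the spread of the WT libraries, from -0.0154 to 0.0484 for nuclear and -0.0079 to 0.053 for mitochondrial members.

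Log2 fold changes of 10 named members near 0 changed sign. Without WT 3 and WT 4 the values were -0.0102 for mt-Co1, -0.0038 for Atp5a1, -0.0092 for Ndufa4, -0.0274 for Sdhd, -0.0188 for Uqcrc2 and -0.0079 for mt-Nd4. With age as a factor they were 0.0022 for mt-Nd2, 0.0014 for mt-Nd5 and 0.0034 for mt-Nd6, and with the replicate block 0.001 for mt-Nd2 and 0.0044 for mt-Nd6. With single libraries left out, Sdhc ran from -0.0354 to 0.0132, Sdhd from -0.0018 to 0.0512, Uqcrc2 from -0.0005 to 0.0479, mt-Nd2 from -0.0883 to 0.021, mt-Nd4 from -0.0247 to 0.0491, mt-Nd5 from -0.099 to 0.0247 and mt-Nd6 from -0.1307 to 0.0247. The cause was not tested. Mice with the same replicate number showed little resemblance. Their deviations correlated at 0.044, -0.0447, 0.137 and -0.0773, and 1 of 4 Neat1-/- mice correlated best with its own number. Over so few mice, these values cannot decide whether the numbers pair the mice. With mitochondrial genes left out before scaling, only nuclear members have values. The counts of 87 and 115 limit mt-Co2 and mt-Co3.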

Other observations

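The ribosomal RNAs of the mitochondrial genome, which are no mRNAs and were outside the members, stood higher in Neat1-/-. mt-Rnr2, the large ribosomal RNA, had 34927, 34576, 32553, 33003 and 35988 CPM in WT and 39432, 34268, 42365 and 37159 in Neat1-/-. The ranges overlapped, since Neat1-/- 3 lay inside WT (log2 fold change 0.16 ± 0.05, SE), with an edgeR p of 0.00488 and an adjusted p of 0.468. mt-Rnr1, the small ribosomal RNA, had 2972 ± 105 CPM in WT (SD, n = 5) and 3457 ± 562 in Neat1-/- (SD, n = 4), a log2 fold change of 0.21 with an edgeR p of 0.00652 and an adjusted p of 0.504. An unadjusted p under 0.05 recurred in 19 of 19 alternatives for both, with adjusted p-values of 0.0349 to 0.89 for mt-Rnr2 and 0.0261 to 0.893 for mt-Rnr1, the lowest of each with no filter on low counts. Without Neat1-/- 4, which had the highest value of both, the log2 fold changes were 0.11 and 0.12 (edgeR adjusted p = 0.73 for both). Ribosomal RNA was depleted before sequencing. How far the depletion reached these RNAs, and its part in the difference, was not tested.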
